A study of Danio rerio with 8 samples.

Results

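The genes described here are the collagen genes of the zebrafish larva, taken as every gene whose deposited symbol begins with col, a type number, the letter a and a chain number. The rule found 57 of the 20409 genes measured. Of these, 55 encode collagen chains, with 16 fibrillar chains, 11 network chains, 10 FACIT chains (fibril-associated collagens with interrupted helices) and 18 others. The other 2, *col4a3bpa* and *col4a3bpb*, encode ceramide transfer proteins and carry the letters of collagen only through an old name of a protein that binds a type IV chain.

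RNA was sequenced from whole, untreated larvae at 4 days post-fertilization (dpf), in 8 libraries. *Elipsa* mutants were homozygous for the tp49d allele of *traf3ip1*, which encodes a protein of intraflagellar transport, and were picked by their curly tail down shape. Controls were siblings of mixed wild-type and heterozygous genotype, so that an unknown share of the control larvae carried 1 mutant copy. Heterozygous fish of the same parental strain were crossed 4 times, and each clutch gave 1 control tube and 1 mutant tube of 30 pooled larvae, which were processed together. There were thus 4 libraries per genotype, each a pool and none a single animal.

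Collagens are secreted proteins whose chains wind around each other into a long helix and then assemble outside the cell. Fibrillar collagens form the fibrils of skin, tendon, bone and cartilage, FACITs sit on the surface of those fibrils, and network collagens form sheets such as the basement membrane or the lattice around hypertrophic cartilage cells. The remaining types form beaded filaments, anchoring fibrils, the multiplexins of basement membrane zones, and chains that span the cell membrane. In fish larvae they are made by fibroblasts, cartilage and bone-forming cells, the notochord and the epidermis.

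Levels are the log2 CPM that the authors deposited, and a difference is mutant minus control on that log2 scale. CPM are read counts scaled to library size. Once sorted, the deposited levels are nearly the same in every library, so they are not counts scaled to library size alone. They are not divided by transcript length, so levels were not tested between genes. Sums and shares of levels over genes, and the choice of genes by level, also depend on transcript length. Calls rest on an adjusted p under 0.1 in limma's moderated test over all genes, without a term for the clutch. The same test with clutch as a block made more calls, and genes that it alone called are named as such. Standard errors are those of the test without a clutch term throughout, also where they stand beside an adjusted p of the block. In whole larvae, fewer cells of a type and less RNA per cell cannot be told apart.

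*traf3ip1* itself was at 3.03, 2.63, 2.81 and 2.78 in the controls of clutches 1 to 4 and at 2.36, 1.88, 1.61 and 2.09 in the mutants, lower in every clutch, with a difference of -0.83 (standard error, SE, 0.18, adjusted p = 0.0751, and 0.00679 with clutch as a block). All 14 markers of muscle, neurons, photoreceptors, skin, gut, pancreas, blood, liver, bone and cartilage that were looked for were measured. The cone gene *gnat2* was the 1 of these called without a clutch term, with a difference of -2.53. With clutch as a block 4 were higher and 4 lower (57.1%, beside 14.3% of all genes), among them the gut gene *fabp2* at -1.37, *prss1* at -0.88 and the skin gene *krt4* at 0.38 (adjusted p = 0.000494, 0.000663 and 0.0550). Both libraries of clutch 1 stood apart from the other 6 in some of them. The exocrine pancreas gene *prss1* was at 6.97 in the control and 6.17 in the mutant of clutch 1, against 8.98 to 9.42 and 8.10 to 8.44 in the other clutches. The embryonic globin gene *hbbe1.1* went the other way, at 10.05 and 10.12 in clutch 1 against at most 8.93 and 9.22 elsewhere. Collagen results are therefore also given without clutch 1 where they changed.

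Few collagen genes passed the test between *elipsa* mutants and controls that left out the pairing by clutch, and more passed with clutch as a block. Without a clutch term, 2 of 57 collagen genes were called (3.51%), beside 1.52% of all genes. *col28a2a*, a type XXVIII chain, was higher in the mutants (1.75%, beside 0.363% of all genes), and *col10a1b*, a type X chain, was lower (1.75%, beside 1.16%). With clutch as a block, 14 collagen genes were called (24.6%), beside 14.3% of all genes, 6 of them higher (10.5%, beside 6.48%) and 8 lower (14%, beside 7.86%). The mutant and control libraries did not overlap for 4 collagen genes (7.02%), beside 6.89% of all genes. These were *col28a2a*, which was higher (beside 3.55%), and *col10a1b*, *col15a1b* and *col6a1*, which were lower (5.26%, beside 3.34%). In 23 collagen genes all clutches agreed in direction (40.4%), beside 32.4% of all genes, 14 upward (24.6%, beside 18%) and 9 downward (15.8%, beside 14.4%). The median difference over the 57 was 0.04, beside 0.03 over all genes, and 53 of them differed by less than 0.3 in either direction. In the test without the clutch term, the standard errors ran from 0.06 to 0.24 with a median of 0.13. No uncalled collagen gene had an adjusted p below 0.247 in that test. With each clutch left out in turn, the block called 1289 to 2879 of all genes, and 1 to 10 collagen genes higher and 3 to 8 lower. Without clutch 1, the block called 10 collagen genes higher and 5 lower. *col7a1l* was then also called without a clutch term, at an adjusted p of 0.0445.

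**Figure D1:**
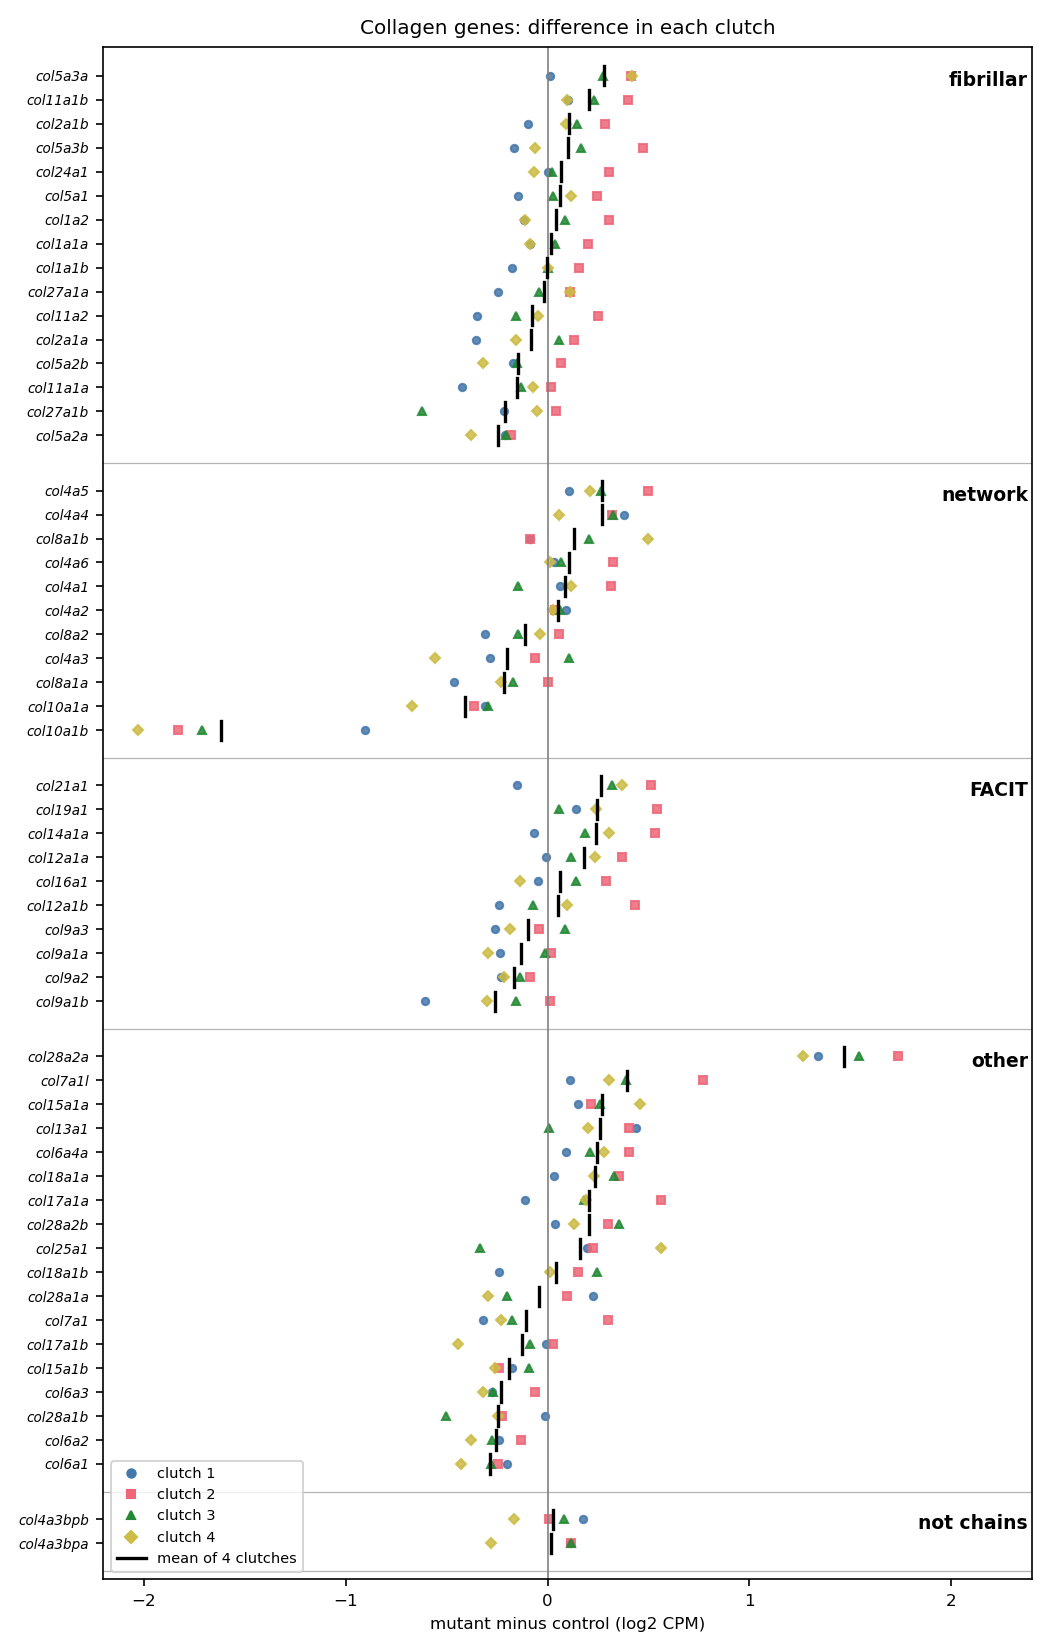
Difference between mutant and control (log2 CPM, x axis) for each of the 57 genes (rows, grouped by class), with 1 symbol per clutch and a black bar at the mean of the 4 clutches. *col28a2a* at 1.47 and *col10a1b* at -1.62 stand apart, and 53 of the 57 bars lie within 0.3 of zero.

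*col28a2a* was the collagen gene with the largest rise. Type XXVIII chains carry von Willebrand factor A domains, as type VI chains do, and in mammals surround certain peripheral glia. *col28a2a* was at 5.02, 4.26, 4.66 and 4.57 in the controls and at 6.36, 5.996, 6.20 and 5.83 in the mutants. Every mutant library was above every control library, and the rise within a clutch was 1.34, 1.74, 1.54 and 1.26. The difference was 1.47 (SE 0.17, adjusted p = 0.00321), which is 2.77-fold on the linear scale. The block gave an adjusted p of 4.71e-05. No library or clutch left out removed this call.

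The other 3 type XXVIII genes were not called in either fit. The closest copy by name, *col28a2b*, was at 3.62, 3.31, 3.66 and 3.48 in controls and at 3.66, 3.61, 4.01 and 3.61 in mutants, with a difference of 0.21 (SE 0.13, adjusted p = 0.575). The groups overlapped, although the mutant was the higher library of each clutch. *col28a1a* differed by -0.04 and *col28a1b* by -0.25.

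*col28a2a* lies on the same chromosome as *traf3ip1*, 19 measured genes away in the gene order of the RefSeq annotation, and the mutant larvae were chosen for 2 mutant copies at *traf3ip1*. Alleles near a selected locus are inherited with it, so a difference of parental haplotype and a response to the mutation cannot be told apart for this gene. Among the 37 other genes within 19 measured genes on either side, a window set after the values were seen, 2 were called (5.41%, beside 1.52% of all genes). They were *zgc:92380*, with a difference of 0.33 and an adjusted p of 0.0938, and the muscle gene *klhl41a*, with -0.51 and 0.0944. With clutch as a block, 12 of the 37 were called, 6 higher and 6 lower (32.4%, beside 14.3%). Their differences ran from -1.57 for *lct* and -1.37 for *vil1* to 0.64 for *klhl23*. Whether linkage, or changes such as that of the gut gene *fabp2*, had a part in these calls was not tested. There were 6 more collagen genes on the chromosome. *col5a2a* lay 24 measured genes away and *col18a1a* lay 29 away, on the other side of *traf3ip1*, and both were called with clutch as a block only. The limit of linked haplotypes given for *col28a2a* holds for *col5a2a* and *col18a1a* too. *col8a1a*, *col6a3*, *col4a2* and *col4a1* lay 200, 273, 487 and 488 measured genes away on that side, and *col6a3* was called with the block. How far linked haplotypes reach along the chromosome was not tested, so the same limit may hold for *col6a3*.

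Network collagens held the largest fall. With clutch as a block 1 gene of this class was called higher and 2 lower (27.3%, beside 14.3% of all genes). Type X collagen forms a lattice around hypertrophic cartilage cells, and in zebrafish its genes are also used by bone-forming cells. *col10a1b* was at 0.87, 1.18, 1.59 and 1.42 in the controls and at -0.03, -0.65, -0.12 and -0.60 in the mutants. Every mutant library was below every control library. The clutches differed by -0.90, -1.83, -1.71 and -2.03, the smallest fall being that of clutch 1. The difference was -1.62 (SE 0.24, adjusted p = 0.0120, and 0.00383 with clutch as a block), a level 3.07-fold lower. It was a low gene, near 1 CPM, and on the scale of log2(CPM + 1) its difference was -0.93 with an adjusted p of 0.0125. Without a clutch term the call of *col10a1b* was lost without clutch 2, 3 or 4, at adjusted p of 0.149, 0.125 and 0.132, and kept in each of these settings with clutch as a block.

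Its copy *col10a1a* was at 8.01, 8.32, 8.71 and 8.72 in the controls and at 7.71, 7.95, 8.41 and 8.05 in the mutants. The groups overlapped because the clutches themselves differed, with clutch 1 lowest in both genotypes, but the mutant was the lower library in every clutch. The difference was -0.41 (SE 0.19, adjusted p = 0.425 without a clutch term and 0.00913 with clutch as a block), and the block called it in every alternative and without each clutch. The difference of *col10a1b* minus that of *col10a1a* was not tested. Reads shared by copies that resemble each other are divided by the counting program, so the values of such pairs are less certain than those of single genes.

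Markers of bone-forming cells had mostly negative differences alongside the type X genes. Of 11 bone-forming genes measured, 10 had a negative difference, with a median of -0.18 beside 0.03 over all genes, where 42.4% were negative, and none was called in either fit (1 at an unadjusted p under 0.05). Their summed level was 10.16 to 10.28 in controls and 10.01 to 10.13 in mutants, but *sparc*, which many other matrix-forming cells also make, held 88.1% to 90.2% of it. Without *sparc* the sum was 6.89 to 7.17 and 6.76 to 6.99, and the groups overlapped. *sp7*, the transcription factor that defines bone-forming cells, was at 2.28, 2.28, 2.83 and 2.75 in controls and at 2.19, 2.19, 2.05 and 1.55 in mutants. Its groups did not overlap, and its difference of -0.54 had an adjusted p of 0.324, and of 0.131 with clutch as a block. No listed marker of these cells stood at the table's lowest value. The part of a smaller number of such cells in the lower *col10a1a* and *col10a1b* was not tested.

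**Figure D2:**
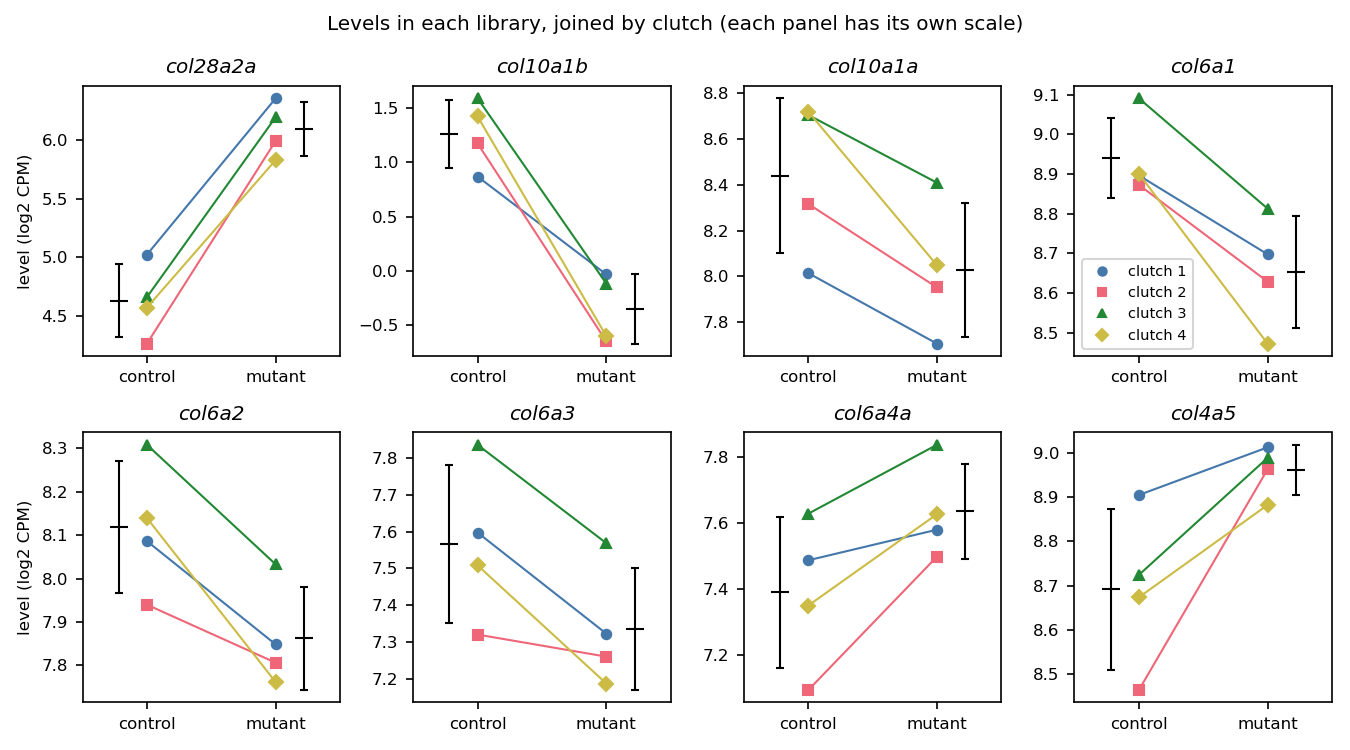
Level (log2 CPM, y axis, a scale of its own in each panel) of 8 collagen genes in each library, with a line joining the control and mutant of a clutch and black bars for the mean and SD of 4 libraries. Lines for *col10a1a*, *col6a1*, *col6a2* and *col6a3* all fall and those for *col6a4a* and *col4a5* all rise, while the groups overlap for these genes other than *col6a1*.

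Type IV collagen is the network of basement membranes. *col4a5*, whose loss in zebrafish disturbs the layering of retinal axons in the tectum, was at 8.91, 8.46, 8.72 and 8.67 in the controls and at 9.01, 8.96, 8.99 and 8.88 in the mutants. The mutant libraries sat close together and above all controls but the one of clutch 1. The difference was 0.27 (SE 0.10, adjusted p = 0.302, and 0.0459 with clutch as a block). The block call was lost without clutch 2, 3 or 4 and, at an adjusted p of 0.101, after re-centring on housekeeping genes, while leaving out the control of clutch 1 gave a call without a clutch term (0.0771). Its partner chain *col4a6* was also higher in every clutch, at a difference of 0.11 (adjusted p = 0.736). The chains *col4a1* and *col4a2*, which are found in nearly all basement membranes, differed by 0.09 and 0.05, and *col4a3* and *col4a4* by -0.20 and 0.27. None of these 5 was called in either fit. Type VIII chains, which form hexagonal lattices under endothelia, were not called, with -0.22 for *col8a1a*, 0.13 for *col8a1b* and -0.11 for *col8a2*.

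Type VI collagen forms beaded filaments between basement membranes and the matrix of muscle and tendon, from a chain each of alpha1, alpha2 and alpha3. The genes of all 3 chains were lower in the mutant of every clutch, by 0.06 to 0.43, measured in the same 4 pairs of libraries. *col6a1* was at 8.90, 8.87, 9.09 and 8.90 in the controls and at 8.70, 8.63, 8.81 and 8.47 in the mutants, and these groups did not overlap. Its difference was -0.29 (SE 0.09, adjusted p = 0.247 without a clutch term). With clutch as a block *col6a1* was called at an adjusted p of 0.0175, and also without each clutch.

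*col6a2* was at 8.09, 7.94, 8.31 and 8.14 in the controls and at 7.85, 7.81, 8.03 and 7.76 in the mutants. Its difference was -0.26 (SE 0.09, adjusted p = 0.327, and 0.0257 with clutch as a block). *col6a3* was at 7.60, 7.32, 7.84 and 7.51 in the controls and at 7.32, 7.26, 7.57 and 7.19 in the mutants, a difference of -0.23 (SE 0.12, adjusted p = 0.492, and 0.0434 with the block). For both genes clutch 3 was the highest in each genotype and the groups overlapped. The block call of *col6a2* was lost without clutch 3 or 4 and that of *col6a3* without clutch 1, 3 or 4. *col6a3* lies on the chromosome of *traf3ip1*, 273 measured genes away, so the limit of linked haplotypes may hold for it.

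*col6a4a* went in the opposite direction. In mammals the chains of this kind can stand in the place of alpha3. It was at 7.49, 7.09, 7.63 and 7.35 in the controls and at 7.58, 7.50, 7.84 and 7.63 in the mutants, higher in every clutch. Its difference was 0.25 (SE 0.12, adjusted p = 0.461, and 0.0405 with clutch as a block). This block call, unlike those of the 3 lower chains, was lost when the libraries were re-centred on housekeeping genes (adjusted p = 0.102), and also without clutch 2, 3 or 4. Of the genes of tendon and fibroblast cells, which make type VI collagen, 10 of 14 had a positive difference (71.4%, beside 57.6% of all genes). Their median was 0.15. With the block *prrx1b* and the tendon gene *tnmd* were called higher (adjusted p = 0.0403 and 0.0822) and *fap* and *twist2* lower (0.0391 and 0.0785), or 28.6% beside 14.3% of all genes. *twist2* is the measured gene next to *traf3ip1*, so the limit of linked haplotypes given for *col28a2a* holds for it too. Their summed level was 9.18 to 9.47 in controls and 9.22 to 9.38 in mutants. Skeletal muscle genes had a median difference of -0.00175, with 1 of 14 called higher and 2 lower with the block (21.4%, beside 14.3%), and their summed level was 15.73 to 15.87 and 15.72 to 15.85. The part of either cell type in the type VI differences was not tested.

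The remaining collagens outside the main classes showed small differences. With types VI and XXVIII they make up the 18 other collagens. Of these the block called 4 higher and 4 lower (44.4%, beside 14.3% of all genes). Type VII collagen makes the anchoring fibrils that tie the epidermal basement membrane to the dermis. *col7a1l* was at 5.87, 4.97, 5.21 and 5.28 in the controls and at 5.98, 5.74, 5.60 and 5.59 in the mutants, higher in every clutch and by least in clutch 1. Its difference was 0.39 (SE 0.18, adjusted p = 0.421, and 0.0415 with clutch as a block, which was lost without clutch 2, 3 or 4). Leaving out the control of clutch 1 gave a call of *col7a1l* without a clutch term (0.0457). *col7a1* differed by -0.11 (adjusted p = 0.806), and without clutch 2 by -0.24, when the block called it (0.0771).

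Of the multiplexins, which lie at basement membranes and release an endostatin fragment, *col15a1b* was at 6.001, 6.05, 5.93 and 5.95 in the controls and at 5.82, 5.81, 5.84 and 5.69 in the mutants. The groups did not overlap, and *col15a1b* had the narrowest spread between clutches of all the chains. Its difference was -0.19 (SE 0.07, adjusted p = 0.302, and 0.0721 with clutch as a block), and this block call was lost when any 1 of the clutches was left out. *col18a1a* was at 8.76, 8.20, 8.53 and 8.40 in the controls and at 8.79, 8.56, 8.87 and 8.63 in the mutants, a difference of 0.24 (SE 0.12, adjusted p = 0.489, and 0.0602 with the block). Its block call was lost without clutch 2, 3 or 4 and after re-centring on housekeeping genes (0.127). *col15a1a* differed by 0.27 and *col18a1b* by 0.04, and neither was called.

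Chains that span the membrane were not called in either fit. *col17a1a*, of the hemidesmosomes of basal epidermal cells, was at 8.66, 8.37, 8.74 and 8.55 in the controls and at 8.55, 8.93, 8.92 and 8.74 in the mutants, with a difference of 0.21 (SE 0.11, adjusted p = 0.504). It was lower in the mutant of clutch 1 and higher in the other clutches, and without clutch 1 the block called it (adjusted p = 0.0747). *col13a1* differed by 0.26 (called by the block, at 0.0931, where genes below a mean log2 value of 1 were left out), *col25a1* by 0.16 and *col17a1b* by -0.13. Basal epidermis genes had a median difference of 0.12, with 0 of 11 called without a clutch term and 4 higher and 2 lower with the block (54.5%, beside 14.3% of all genes). The higher ones were *cldn1*, *krtt1c19e*, *krt4* and *fras1*, at 0.30, 0.32, 0.38 and 0.29 (adjusted p = 0.0199, 0.0883, 0.0550 and 0.0370 with the block). The integrin genes *itga6b* and *itgb4*, of the hemidesmosomes, were the lower ones, at -0.36 and -0.21 (adjusted p = 0.0325 and 0.0614 with the block). The marker *tp63* of these cells differed by 0.10 and was not called. The summed level of the list was 13.72 to 14.09 in controls and 14.11 to 14.21 in mutants, of which *krt4*, a keratin also of the superficial skin layer, held 50.1% to 60.7%. Without *krt4* it was 12.61 to 12.85 and 12.83 to 12.92, and the groups overlapped. The part of these cells in the *col17a1a* values was not tested.

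Of the fibrillar collagens, the class of the main fibril chains, 0 of 16 were called by limma without a clutch term, and 1 had an unadjusted p under 0.05. With clutch as a block 1 was called higher and 1 lower (12.5%, beside 14.3% of all genes). The median difference was 0.01. Type I collagen is the fibril of skin, tendon and bone. *col1a1a* was at 11.74, 11.54, 11.74 and 11.78 in the controls and at 11.66, 11.74, 11.78 and 11.69 in the mutants, a difference of 0.02 (SE 0.09, adjusted p = 0.965). *col1a1b* differed by -0.00497 (SE 0.10) and *col1a2* by 0.04 (SE 0.12). The control and mutant values of *col1a1b* were equal in clutches 3 and 4, at 11.04 and 10.95. Each library holds almost the same set of values once sorted, so those near the top of the table follow rank, and small differences of these genes can be hidden.

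Type II collagen is the fibril of cartilage and the notochord sheath. *col2a1a* was at 11.57, 10.99, 11.27 and 11.04 in the controls and at 11.22, 11.12, 11.33 and 10.88 in the mutants, and differed by -0.08 (SE 0.15, adjusted p = 0.876). Its sign changed between clutches. *col2a1b* differed by 0.11 (adjusted p = 0.826). Type XI chains join type II in cartilage fibrils. *col11a1b* was at 8.42, 7.87, 8.28 and 8.01 in the controls and at 8.52, 8.27, 8.50 and 8.11 in the mutants, a difference of 0.21 (adjusted p = 0.605, and 0.0833 with clutch as a block, lost without clutch 2, 3 or 4 and after re-centring on housekeeping genes). Its copy *col11a1a* differed by -0.15 and *col11a2* by -0.08, and neither was called.

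Type V chains set the width of type I fibrils. *col5a2a* was at 8.83, 8.55, 8.69 and 8.61 in the controls and at 8.62, 8.36, 8.49 and 8.23 in the mutants, lower in every clutch. Its difference was -0.25 (SE 0.10, adjusted p = 0.383, and 0.0295 with clutch as a block), and the block call was lost without clutch 3 or 4. *col5a3a* had the largest positive difference of the class, at 2.55, 2.21, 2.18 and 1.87 in the controls and 2.56, 2.62, 2.46 and 2.29 in the mutants. It differed by 0.28 (SE 0.16, adjusted p = 0.542) and was not called. *col5a1*, *col5a2b* and *col5a3b* differed by 0.06, -0.14 and 0.10, and the less common fibrillar genes *col24a1*, *col27a1a* and *col27a1b* by 0.07, -0.02 and -0.21.

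FACIT collagens had 0 of 10 genes called without a clutch term and none at an unadjusted p under 0.05. With clutch as a block 1 was called (10%, beside 14.3% of all genes). Type IX collagen coats the type II fibrils of cartilage. Of its 4 genes, *col9a1a*, *col9a1b* and *col9a3* were lower in the mutant of 3 clutches each. *col9a2* was at 9.32, 8.94, 9.07 and 8.87 in the controls and at 9.09, 8.85, 8.93 and 8.65 in the mutants, lower in every clutch. Its difference was -0.17 (SE 0.12, adjusted p = 0.634, and 0.0915 with clutch as a block), and the block call was lost when any 1 of the clutches was left out and after re-centring on housekeeping genes. *col9a3* differed by -0.10 (adjusted p = 0.848), *col9a1a* by -0.13 and *col9a1b* by -0.26. The block called *col9a1b* without clutch 2 (-0.35, adjusted p = 0.0637) and where genes below a mean log2 value of 1 were left out (0.0910). Beside them, 12 of 17 cartilage genes had a negative difference (70.6%, beside 42.4% of all genes), with a median of -0.11. The summed level of these cartilage genes was 10.53 to 11.11 in controls and 10.43 to 10.98 in mutants. Their part in the type IX values was not tested.

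The 6 FACIT genes outside type IX had differences above zero, of which none was called. *col12a1a* was at 9.55, 9.23, 9.74 and 9.26 in the controls and at 9.54, 9.60, 9.86 and 9.50 in the mutants, a difference of 0.18 (SE 0.13, adjusted p = 0.640). *col19a1* was higher in every clutch by 0.06 to 0.54, with a mean of 0.25 (adjusted p = 0.504). *col14a1a*, *col21a1*, *col16a1* and *col12a1b* differed by 0.24, 0.26, 0.06 and 0.05. The last pair were higher in 2 clutches and lower in 2, and changed sign when a library was left out. Neither fit called any of the 6. Without clutch 1, *col12a1a*, *col14a1a* and *col21a1* were called with the block, at adjusted p of 0.0813, 0.0533 and 0.0741.

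Within clutches, the classes did not move one way. The median difference of fibrillar genes was -0.17, 0.22, 0.03 and -0.06 in clutches 1 to 4, and that of FACITs was -0.19, 0.33, 0.07 and -0.02. Over all genes the 4 medians lay between 0.01 and 0.04. In clutch 1, 3 of 16 fibrillar and 1 of 10 FACIT genes were higher in the mutant, while in clutch 2 these were 15 of 16 and 8 of 10. Network genes had medians of -0.09, 0.03, 0.06 and 0.01, and the other collagens 0.01, 0.22, -0.04 and 0.07. The opposite signs of clutches 1 and 2 went with the control libraries. The median fibrillar gene was 0.26 above its own mean in the control of clutch 1 and 0.20 below it in the control of clutch 2, while the mutants of these clutches were at 0.06 and -0.05.

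**Figure D3:**
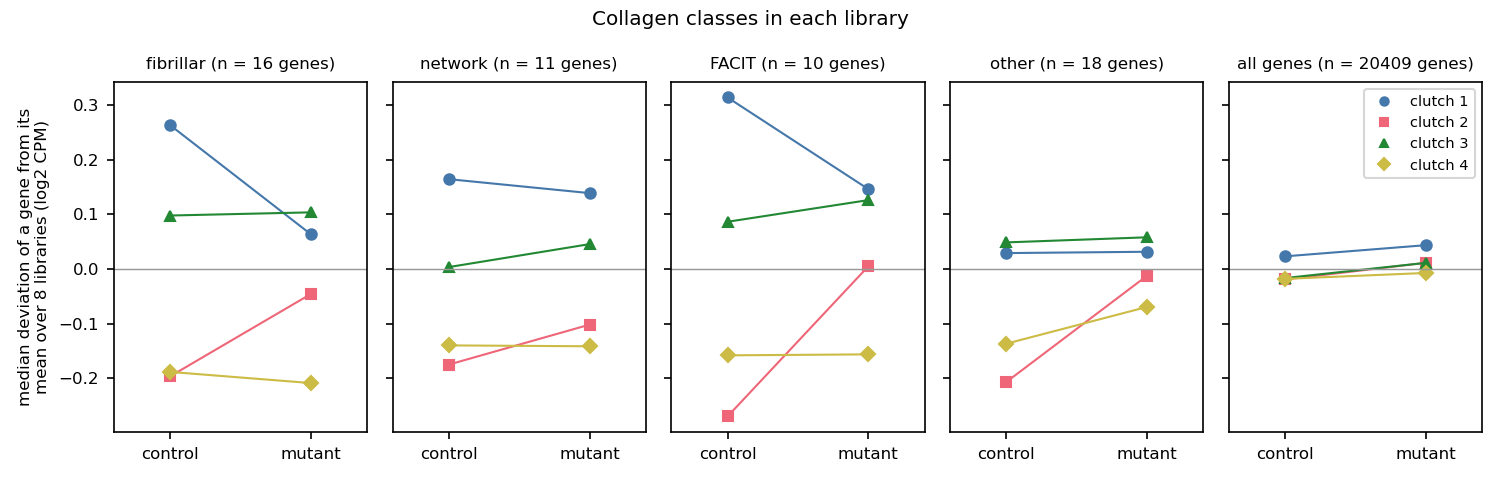
Median deviation of the genes of each class from their own mean over the 8 libraries (log2 CPM, y axis), with a line joining the control and mutant of each clutch. The fibrillar and FACIT genes fall from control to mutant in clutch 1 and rise in clutch 2, and all genes together stay near zero.

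Collagen chains also differed between clutches. The median range of the 4 clutch means was 0.42 over the 55 chains, beside 0.37 over all genes, and ran from 0.11 for *col15a1b* to 0.72 for *col15a1a*. The highest clutch mean was in clutch 1 for 33 chains and in clutch 3 for 18, and the lowest in clutch 4 for 29 and in clutch 2 for 20. The 57 genes together made up 1.72% to 2.28% of the linear CPM of a control library and 1.82% to 2.16% of a mutant library, most of it fibrillar (1.18% to 1.59% in controls). These are shares of the deposited values and not of the reads.

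The copies that the fish genome duplication left did not always move together. Of 15 pairs named as a and b copies, 9 had differences of the same sign. In the type X pair both were negative and in the pair *col28a2a* and *col28a2b* both were positive. *col15a1a* and *col15a1b* differed in sign, at 0.27 and -0.19, as did *col17a1a* and *col17a1b*. The difference between copies was not tested for any pair.

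Genes that make, export and process collagen were next set beside the chains. Where no gene of a list was called without a clutch term, the number at an unadjusted p under 0.05 was 0 for folding, actinotrichia, tendon, muscle, notochord and housekeeping genes, 1 for cartilage, bone-forming and vascular genes, 2 for export and receptors, 3 for basement membrane partners and basal epidermis and 4 for cleavage and crosslinking, beside 12% of all genes. In the endoplasmic reticulum, where proline and lysine residues are hydroxylated and chains are folded, 0 of 23 genes were called, or 2 higher and 1 lower with clutch as a block (13%, beside 14.3% of all genes), and the median difference was -0.05. The collagen chaperone *serpinh1b* was at 4.97, 3.71, 5.43 and 3.42 in the controls and at 5.55, 4.45, 5.68 and 3.72 in the mutants. The groups overlapped, and its difference of 0.47 was called only with the block (adjusted p = 0.0172). Its copy *serpinh1a* differed by -0.10, was lower in the mutant of 3 clutches and was not called. *plod2*, a lysyl hydroxylase of collagen, differed by -0.22 (adjusted p = 0.0523 with the block). The glycosyltransferase gene *si:ch211-114l13.7*, which the RefSeq table names *colgalt1b*, differed by 0.23 (adjusted p = 0.0918 with the block).

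Of 14 genes for the export of procollagen, none was called without a clutch term, and 2 were lower with clutch as a block (14.3%, the same share as over all genes). These 14 had a median difference of -0.07. *sec24d*, a coat protein of the vesicles that carry procollagen and whose loss in zebrafish distorts craniofacial cartilage, was at 6.49, 6.32, 6.54 and 6.38 in the controls and at 6.26, 5.97, 6.20 and 6.09 in the mutants. Its groups did not overlap, and its difference was -0.30 (SE 0.09, adjusted p = 0.203, and 0.00949 with clutch as a block). *ctage5*, of the exit sites of the endoplasmic reticulum, differed by -0.25 (adjusted p = 0.0233 with the block).

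Cleavage and crosslinking follow outside the cell, and 16 of 18 genes of these steps had a negative difference (88.9%, beside 42.4% of all genes), with a median of -0.10. None was called without a clutch term, and with the block 1 was higher and 3 lower (22.2%, beside 14.3% of all genes). *pcolce2b*, an enhancer of procollagen C-proteinase, was at 4.25, 4.40, 4.59 and 4.09 in the controls and at 3.72, 3.99, 3.92 and 3.76 in the mutants, with no overlap. The fall was -0.48 on the log2 scale (adjusted p = 0.152 without a clutch term and 0.00945 with it). The lysyl oxidase *loxa*, which crosslinks fibrils, differed by -0.54 (adjusted p = 0.0331 with the block) and the C-proteinase *bmp1a* by -0.20 (0.0758). *adamts2*, which removes the N-terminal propeptide, differed by 0.30 (0.0959).

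Proteins that bind fibrils included 1 called gene of 33 (3.03%, beside 1.52% of all genes), with 5 called higher and 7 lower with the block (36.4%, beside 14.3%) and a median difference of -0.01. *omd*, which encodes osteomodulin, a small leucine-rich proteoglycan of bone matrix, was at 1.62, 1.99, 1.95 and 2.22 in the controls and at 0.25, 0.63, 0.70 and 0.04 in the mutants. Every mutant library was below every control library, and the difference was -1.54 (SE 0.21, adjusted p = 0.00764). It was close in size to that of *col10a1b*. Of the cartilage genes, 0 of 17 were called without a clutch term and 5 were lower and 1 higher with it (35.3%, beside 14.3%). *matn1* and *matn3b*, of the matrilins that link cartilage fibrils, differed by -0.44 and -0.49 (adjusted p = 0.00222 and 0.0307 with the block), and *hapln1b* and *snorc* by -0.59 and -0.44 (0.0122 and 0.0275). The matrilin gene *matn3a*, of the list of proteins that bind fibrils, went the other way. It was higher in the mutant of every clutch, with a difference of 0.25 (adjusted p = 0.0274 with the block). *hapln1a*, which encodes a link protein for hyaluronan, differed by 0.33 (0.0316 with the block).

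Partners of collagen in the basement membrane had mostly positive differences, in 22 of 25 genes (88%, beside 57.6% of all genes), with a median of 0.13. None was called without a clutch term, and with clutch as a block 6 were higher and 1 lower (28%, beside 14.3%). *frem1a*, of the Fras and Frem complex under the epidermis of the fin fold, was at 5.05, 4.71, 4.94 and 4.93 in the controls and at 5.31, 5.20, 5.32 and 5.22 in the mutants. Its groups did not overlap, and its difference was 0.35 (SE 0.09, adjusted p = 0.142, and 0.0127 with the block). *frem2a* and *fras1* of the same complex differed by 0.52 and 0.29 (adjusted p = 0.0340 and 0.0370 with the block), and the laminin chain *lama3* by -0.59 (0.0297). Clutch 1 had the smallest difference of these Fras and Frem genes. Vascular genes, a further source of basement membrane, were all positive, with a median of 0.20 over 9 genes, none called without a clutch term, *plvapb* and *tie1* called higher with it (22.2%, beside 14.3%, adjusted p = 0.0421 and 0.0235), and a summed level of 7.59 to 7.76 in controls and 7.72 to 7.97 in mutants. Their part in the *col4a5* and *col18a1a* differences was not tested.

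Collagen receptors had 0 of 15 genes called, and 3 higher with the block (20%, beside 14.3% called and 6.48% higher of all genes), and the median difference of the 15 was 0.02. The integrin beta1 gene *itgb1b.1* differed by 0.33 (adjusted p = 0.00997 with the block), *itgb1b* by 0.18 (0.0740) and the collagen-binding *itga11b* by 0.71 (0.0450). *itga11b* was a low gene, at a mean log2 value of 1.11. The other beta1 genes of the list, *itgb1a* and *itgb1b.2*, differed by 0.02 and -0.01 and were not called. For collagen breakdown, 1 of 21 genes was called (4.76%, beside 1.52%). The lysosomal protease *ctsla* was at 9.22, 9.39, 9.34 and 9.14 in the controls and at 9.60, 9.67, 9.61 and 9.71 in the mutants, without overlap, with a difference of 0.37 (SE 0.08, adjusted p = 0.0757). This call was lost when the libraries were re-centred on housekeeping genes. With the block 2 genes of this list were higher, *ctsla* and *timp2a*, and 2 lower, *mmp30* and *timp4.3* (19%, beside 14.3%). The *timp* genes of the list encode inhibitors of matrix metalloproteinases and not proteases. *timp2a* differed by 0.30 and *timp4.3* by -0.83 (adjusted p = 0.0170 and 0.0361 with the block). *timp4.3* was a low gene, at -0.61 and -1.86 in the control and mutant of clutch 1. In the other clutches it was at 1.86 to 2.02 in controls and 0.89 to 1.42 in mutants. The largest differences of the list, 1.46 for *mmp9* and 1.23 for *mmp13a*, were not called (adjusted p = 0.104 and 0.157 with the block). They lay mostly in clutches 3 and 4, at 2.07 and 3.33 for *mmp9* and 1.56 and 3.39 for *mmp13a*. In clutch 2 both were negative, at -0.52 and -0.10. In the list of actinotrichia, the collagen-containing rods of the larval fin fold, *and2* differed by -0.23 (adjusted p = 0.0446 with the block) and *and1* and *and3* by 0.09 and -0.03.

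**Figure D4:**
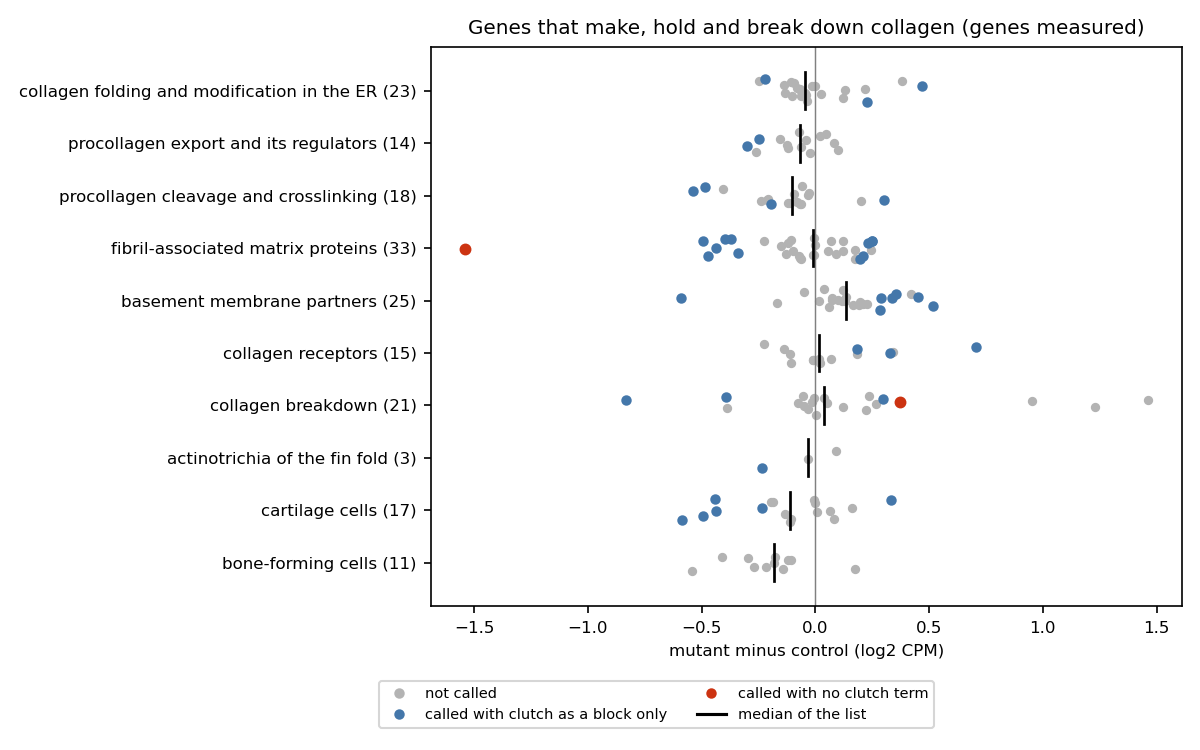
Difference between mutant and control (log2 CPM, x axis) of each measured gene in 10 lists of genes that make, bind or break down collagen or mark the cells that form it, with a black bar at the median of a list. *omd* at -1.54 and *ctsla* at 0.37 are the 2 genes called without a clutch term, and the medians run from -0.18 for bone-forming cells to 0.13 for basement membrane partners.

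Notochord genes, from cells that secrete a sheath rich in collagen, had a median difference of -0.02, with 0 of 15 called without a clutch term and *ngs* called lower with it (-0.31, adjusted p = 0.0361, or 6.67% beside 14.3% of all genes). The 13 housekeeping genes had a median of 0.04, with 0 called, and *hprt1* lower with the block (adjusted p = 0.0710).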

How the data were processed

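RNA of 8 whole-larva libraries was analysed. According to the methods, SOAPnuke filtering was followed by mapping to genome (HISAT2) and transcriptome (Bowtie2), RSEM counting, removal of genes at a mean CPM of 1 or less, and voom. In the deposited values, 235 of 20409 genes have a mean CPM of 1 or less. The methods place the filter before normalization, so this count does not show whether it was applied. The submitters' processing notes name GRCz11. The authors deposited log2 CPM values. Sorted values were nearly identical between libraries, which ties top genes to ranks, and depth is unknown, so no counting interval is given. A deposited comparison table gave symbols only, and its fold changes and p-values were not used.

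Genotypes were compared in limma 3.58.1 under R 4.3.3 (trend, two-sided, Benjamini-Hochberg over 20409 genes). Control and mutant of a clutch came from 1 breeding and were processed at the same time, and their deviations from group means correlated at 0.640, 0.325, 0.334 and 0.459 in clutches 1 to 4. A second fit took the clutch as a block. Nothing says that larvae were individually replicated, so p-values measure the spread between pools.

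Collagen genes, classes and the 17 gene lists (256 of 281 symbols found) were chosen with earlier results of these data known. Named genes were those called in either fit, the 3 of highest level and the most positive and negative consistent ones per class, and up to 4 called genes per list with up to 2 more of opposite direction. Every other gene was named after its values were seen. RefSeq (another build) gave names and gene order, so no coordinates are printed.

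Alternatives were no trend, robust moderation, library weights, a minimum mean of 1, a pseudocount of 1, re-centring on housekeeping genes, the block, an adjusted p under 0.05, and leaving out each library or clutch. Sums without the most abundant gene of a list were added after the data were seen. The fits were also run on simulated data, with genes drawn independently and known changes larger than most collagen differences. That run does not bear on the collagen calls. Figures used matplotlib 3.10.9 in Python 3.11.15.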

Additional observations from a re-analysis of the deposited data

Results flagged for a closer look

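In 114 groups of 4 libraries (57 genes in each genotype), 5 held a library far from the other 3 by Dixon's criterion, which chance meets in about 1 group of 20. *col6a1* was at 9.09 in the control of clutch 3, with the other controls at 8.87 to 8.90, and *col1a1a* was at 11.54 in the control of clutch 2, with the others at 11.74 to 11.78. The other 3 are type XXVIII genes in mutants. *col28a1a* was at 4.95 in clutch 1, with the others at 4.63 to 4.66. *col28a1b* was at 0.90 in clutch 4, with the others at 1.27 to 1.34, and *col28a2b* was at 4.01 in clutch 3, with the others at 3.61 to 3.66. *col28a2a* and *col10a1b* held no such library.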

How the results depend on the processing

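The call of *col28a2a* was kept in every alternative. With clutch as a block, 2927 genes were called in place of 311, and 6 collagen genes were higher and 8 lower in place of 1 and 1. The block gave 2435 genes, 2 higher and 7 lower collagen genes after re-centring on housekeeping genes, 2995, 7 and 8 with a minimum mean log2 value of 1, and 3035, 6 and 8 with a pseudocount of 1. Without the block, library weights called 682 genes, an adjusted p under 0.05 called 206, and the minimum mean left 0 lower collagen genes because *col10a1b* is below it. Leaving out libraries or clutches, with and without the block, gave 80 to 2879 genes, 1 to 10 higher and 0 to 8 lower collagen genes. The count without clutch 1 was 1075 without the block.

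Differences near zero changed sign with library weights, to 0.00835 for *col1a1b* and 0.0164 for *col27a1a*, or when a library or clutch was left out. These ranged from -0.0466 to 0.0498 for *col1a1a*, -0.08 to 0.052 for *col1a1b*, -0.0587 to 0.0941 for *col1a2*, -0.157 to 0.0381 for *col2a1a*, -0.032 to 0.129 for *col5a1*, -0.0197 to 0.275 for *col5a3b*, -0.202 to 0.0457 for *col11a2*, -0.015 to 0.184 for *col24a1*, -0.125 to 0.132 for *col27a1a*, -0.0378 to 0.195 for *col4a1*, -0.175 to 0.0307 for *col9a3*, -0.0963 to 0.217 for *col12a1b*, -0.013 to 0.163 for *col16a1*, -0.0272 to 0.134 for *col18a1b*, -0.134 to 0.0395 for *col28a1a*, -0.0745 to 0.133 for *col4a3bpa* and -0.0244 to 0.0894 for *col4a3bpb*. None of these was called in any setting. The cause of these changes was not tested.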

Other observations

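Genes that the RefSeq table names as collagens stand under 5 other symbols in the deposited table and are outside the rule. *LOC101885935*, named *col26a1*, was higher in the mutant of every clutch, by 0.80 (standard error 0.25, adjusted p = 0.248, and 0.0522 with clutch as a block), at a low level. *si:dkeyp-44a8.4*, named *col23a1a*, a chain that spans the membrane, differed by 0.25 (adjusted p = 0.0803 with the block). *LOC100331704*, named *col14a1b*, and *prp*, named *col22a1*, differed by 0.24 and 0.23, and *LOC101886266*, named *col23a1b*, by -0.06. None was called without a clutch term, and the last 3 were not called with it.

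Collagen genes varied more among the controls than among the mutants. The SD over the 4 control libraries was the larger one for 44 of 57 genes (77.2%), beside 51.9% of all genes, and the median SD was 0.24 in controls and 0.17 in mutants, beside 0.19 and 0.19 over all genes. By class this held for 14 of 16 fibrillar and 9 of 10 FACIT genes, and for 11 of the 18 other collagens. These counts are a description without a test, since the genes share the same 8 libraries and the control of clutch 1 was high and that of clutch 2 low for most of them. The trait was not particular to collagens. Median SDs in controls and mutants were 0.21 and 0.14 for basement membrane partners and 0.22 and 0.13 for cleavage and crosslinking genes. For folding genes (0.26 and 0.28) and tendon and fibroblast genes (0.24 and 0.26) the mutant median was the larger.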
